A study of Mus musculus with 16 samples.

Results

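The CXC chemokine ligands considered here are 10 genes of the mouse heart transcriptome, taken by symbol from the 55278 gene symbols of the count tables. Cxcl1, Cxcl2, Cxcl3 and Cxcl5 were grouped as neutrophil-attracting, Cxcl9, Cxcl10 and Cxcl11 as interferon-induced, and Cxcl12, Cxcl13 and Cxcl16 as homeostatic. All 10 were listed in each of the 16 libraries, and all 10 passed the filter on low counts. Their levels were compared between hearts of endotoxin-treated and control mice in the presence and in the deficiency of PPARα, the nuclear receptor that drives fatty acid oxidation genes in cardiomyocytes.

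The mice were males on a C57BL/6J background, 8 to 12 weeks old, and total RNA of their hearts was sequenced, with 4 samples in each of 4 groups. PPARα-deficient mice, which lack the receptor in cardiomyocytes, were injected intraperitoneally with 5 mg/kg lipopolysaccharide (LPS, a bacterial endotoxin) or with its solvent, phosphate buffered saline (PBS). Ppara-flox mice, which carry floxed Ppara alleles, received the same LPS dose or PBS. Hearts were taken 12 h later. The Cre line that removes the gene is not named in the labels, and no group carries a Cre without floxed alleles, so loss of PPARα and presence of a Cre cannot be told apart. The labels do not say that the samples of a group came from separate mice, so the p-values measure the spread between these samples. Although the text on RNA extraction mentions islets, every sample is labelled as heart tissue. Ins1, Ins2 and Gcg, which mark pancreatic islets, had 0 counts in all 16 libraries, and the summed level of the 5 cardiomyocyte markers was at least 26419 CPM (counts scaled to the effective library size) in each. That sum was 29443 to 34149 CPM in PPARα-deficient hearts given LPS and 48356 to 55136 CPM in those given PBS, and 26419 to 31726 CPM after LPS and 52538 to 59182 CPM after PBS in Ppara-flox hearts. It was lower after LPS in both genotypes, and its part in the ligand values was not tested. Of the 5 markers, 4 were called lower in PPARα-deficient and 5 in Ppara-flox hearts, against 18.3% and 19.1% of all genes. All LPS libraries carry higher numbers in their column headers than all PBS libraries, so LPS and the order of numbering cannot be told apart.

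The libraries held 65618867 to 75490706 estimated counts each. Among low values multiples of 4 were in excess (4 itself in 12837 entries, 3 in 5293 and 5 in 7268), so 1 read pair was taken as 4 estimated counts, and the counting precision is that of 16404717 to 18872676 read pairs per library. A count of 0 allows up to 12 estimated counts (3 read pairs), which is about 0.166 CPM in PPARα-deficient and 0.168 CPM in Ppara-flox hearts given PBS; such limits cover counting error only. Ppara itself averaged 14.6 ± 2.58 CPM in PPARα-deficient hearts given PBS and 50.2 ± 9.86 CPM in Ppara-flox hearts given PBS (SD, n = 4 each). Its log2 difference was -1.78, with an adjusted p of 0.00287 in edgeR's quasi-likelihood test. After LPS, Ppara averaged 7.98 ± 3.38 CPM in PPARα-deficient hearts and 11.3 ± 3.31 CPM in Ppara-flox hearts, and that difference did not pass the test (adjusted p = 0.651).

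CXC chemokines are small secreted proteins that guide leukocytes through G protein-coupled receptors. The neutrophil-attracting ligands act on CXCR2 and are induced within hours by NF-κB, the transcription factor that Toll-like receptor and interleukin-1 signals release. CXCL9, CXCL10 and CXCL11 act on CXCR3 of activated T cells and natural killer cells and are induced by interferons, in part through interferon regulatory factors. CXCL12 is made constitutively by stromal and endothelial cells and retains CXCR4-bearing cells in tissue, CXCL13 draws B cells through CXCR5, and CXCL16 is a membrane-anchored ligand of CXCR6 that also binds oxidised lipoprotein.

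The sequences just before the gene starts are shown because the 5 neutrophil-attracting and interferon-induced ligands with an entry hold a short motif there that the Cxcl12 and Cxcl13 windows lack; Cxcl5, Cxcl11 and Cxcl16 had no entry and were not searched. RefSeq promoter entries (GRCm38.p6) were at hand for 7 of the 10 ligands, namely Cxcl1, Cxcl2, Cxcl3, Cxcl9, Cxcl10, Cxcl12 and Cxcl13. In the 250 bases before the start, the NF-κB letters (GGG, any 2 bases, TT, any base, CC), searched on both strands, occurred in 5 of these 7 (71.4%), against 1350 of 32851 promoters of the table (4.11%). The interferon response element letters (TTTC, any 2 bases, TTTC) occurred in 1 of the 7, against 978 promoters (2.98%), and the STAT letters (TTC, any 3 bases, GAA) in 0 of the 7, against 2306 promoters (7.02%). The windows are written 5′ to 3′ in the direction of transcription, and capitals mark the NF-κB matches and, in Cxcl10, also the interferon response element match that lies farther from the start. Cxcl1 was taken from the plus strand of chr5:90890995-90891244, Cxcl2 from the plus strand of chr5:90903649-90903898, and Cxcl3 from the plus strand of chr5:90785851-90786100. Cxcl9 was taken from the minus strand of chr5:92328080-92328329, Cxcl10 from the minus strand of chr5:92348890-92349139, and Cxcl12 from the plus strand of chr6:117168285-117168534.
Cxcl1: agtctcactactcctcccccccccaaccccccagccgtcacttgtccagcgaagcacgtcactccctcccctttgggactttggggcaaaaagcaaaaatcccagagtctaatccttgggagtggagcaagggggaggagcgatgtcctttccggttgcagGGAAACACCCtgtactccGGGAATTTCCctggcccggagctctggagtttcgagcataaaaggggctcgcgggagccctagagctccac
Cxcl2: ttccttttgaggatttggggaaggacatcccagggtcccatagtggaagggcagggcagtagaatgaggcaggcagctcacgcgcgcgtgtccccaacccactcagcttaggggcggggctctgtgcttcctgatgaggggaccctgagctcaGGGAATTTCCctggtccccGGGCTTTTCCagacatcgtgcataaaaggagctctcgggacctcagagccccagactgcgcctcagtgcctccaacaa
Cxcl3: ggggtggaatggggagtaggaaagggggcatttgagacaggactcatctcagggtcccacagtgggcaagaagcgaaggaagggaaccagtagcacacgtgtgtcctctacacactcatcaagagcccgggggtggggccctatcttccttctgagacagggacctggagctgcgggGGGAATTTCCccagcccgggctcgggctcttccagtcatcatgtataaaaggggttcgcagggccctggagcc
Cxcl9: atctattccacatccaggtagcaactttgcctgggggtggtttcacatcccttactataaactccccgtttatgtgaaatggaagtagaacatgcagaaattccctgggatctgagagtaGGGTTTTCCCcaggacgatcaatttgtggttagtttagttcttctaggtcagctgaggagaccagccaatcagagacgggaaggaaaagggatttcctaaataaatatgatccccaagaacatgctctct
Cxcl10: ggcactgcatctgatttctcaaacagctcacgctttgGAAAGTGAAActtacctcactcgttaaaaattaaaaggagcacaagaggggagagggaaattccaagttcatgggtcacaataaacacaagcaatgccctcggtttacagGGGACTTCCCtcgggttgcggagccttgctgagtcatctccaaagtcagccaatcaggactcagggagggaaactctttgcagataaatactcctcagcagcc
Cxcl12: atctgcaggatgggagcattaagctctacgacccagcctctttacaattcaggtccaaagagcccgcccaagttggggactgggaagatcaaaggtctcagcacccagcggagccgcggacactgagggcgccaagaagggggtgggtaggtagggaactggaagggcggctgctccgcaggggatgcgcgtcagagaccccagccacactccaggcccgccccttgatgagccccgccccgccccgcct
Cxcl1 and Cxcl2 held a pair of NF-κB matches each, within 97 bases of the start. Cxcl3, Cxcl9 and Cxcl10 held 1 each, no match overlapped another, and none of the letters searched was found in the Cxcl12 and Cxcl13 windows. A match describes the letters only, and a window without one says nothing of the factor.

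**Figure D1:**
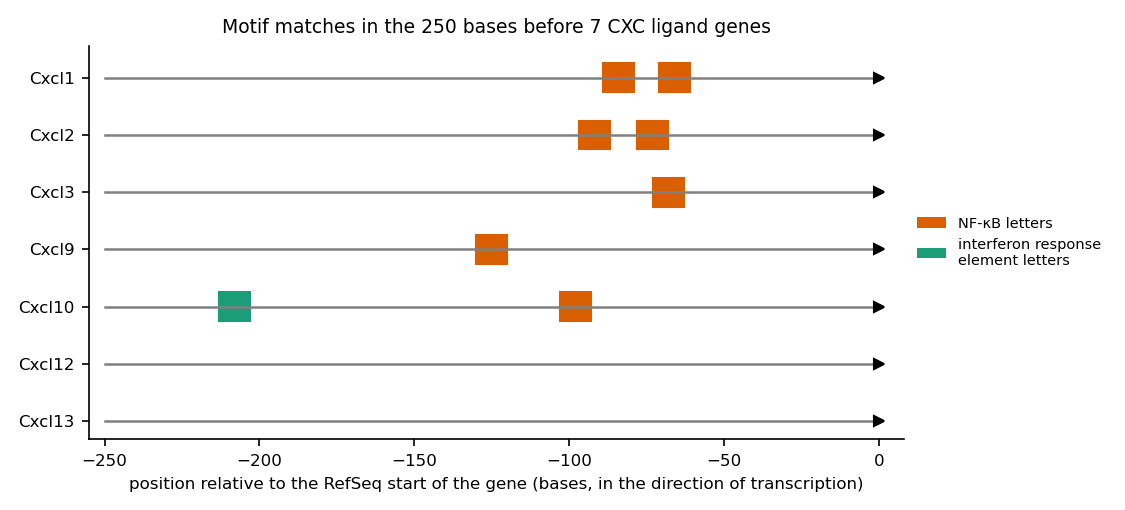
Positions of the motif letters in the 250 bases before the RefSeq start of 7 CXC ligand genes, with the distance to the start in bases on the horizontal axis and 1 line per gene. Orange boxes are NF-κB letters and the green box is the interferon response element letters; the 5 genes with an orange box are Cxcl1, Cxcl2, Cxcl3, Cxcl9 and Cxcl10, and the Cxcl12 and Cxcl13 lines are empty.

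LPS raised 9 of the 10 ligands and lowered Cxcl12 in both genotypes. Among all 18713 genes tested, 19.4% were called higher and 18.3% lower in PPARα-deficient hearts, and 20.2% higher and 19.1% lower in Ppara-flox hearts, taking an adjusted p under 0.05 as the threshold and asking for no minimum fold. The median log2 change of the 10 ligands was 5.01 in PPARα-deficient hearts and 5.82 in Ppara-flox hearts (5.17 with Cxcl3 and Cxcl11 placed at their lower bounds), against 0.01 over all genes in each genotype. The LPS comparisons of the 2 genotypes set no library in common against each other, but the spread used in both tests was estimated from all 16 libraries. Each LPS group lay wholly apart from its PBS group for all ligands except Cxcl11 in PPARα-deficient hearts. Over all genes, groups lay apart for 19.5% higher and 18.4% lower in PPARα-deficient hearts, and for 19.2% higher and 18.4% lower in Ppara-flox hearts. In whole hearts, more cells of a type and more RNA per cell cannot be told apart, nor can fewer cells and less RNA per cell.

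**Figure D2:**
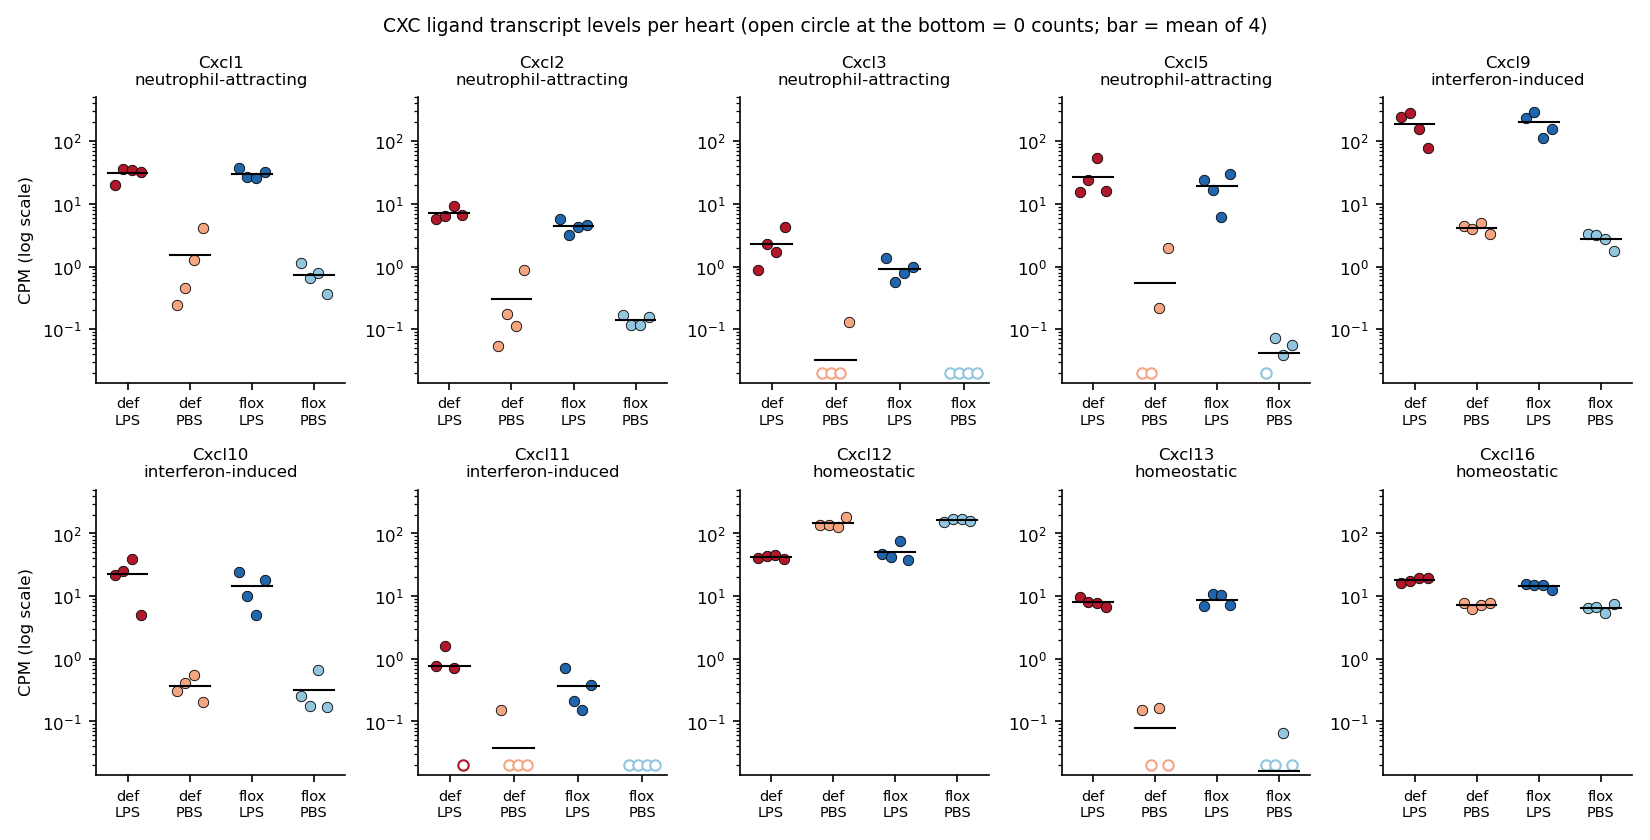
Level of each CXC ligand in every heart, in CPM on a log axis, with 1 panel per ligand and the groups PPARα-deficient LPS, PPARα-deficient PBS, Ppara-flox LPS and Ppara-flox PBS from left to right. Points are samples, bars are means of 4, and open circles at the bottom are libraries with 0 counts; the LPS points lie above the PBS points in every panel but that of Cxcl12, where they lie below, and Cxcl11 of PPARα-deficient hearts, where 1 LPS library is at 0.

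Of the neutrophil-attracting ligands, Cxcl1 and Cxcl5 reached the highest levels per exon length after LPS. Cxcl1, the mouse counterpart of the human GRO chemokines (chr5:90891241-90893115, plus strand), measured 20.0, 35.7, 35.2 and 32.3 CPM in PPARα-deficient hearts given LPS. In PPARα-deficient hearts given PBS it measured 0.248, 0.457, 1.26 and 4.18 CPM. It measured 36.7, 26.8, 25.5 and 32.8 CPM in Ppara-flox hearts given LPS, against 1.12, 0.658, 0.775 and 0.370 CPM in Ppara-flox hearts given PBS. The LPS values of the 2 genotypes lay over each other, and the highest PBS value was that of PPARα-deficient replicate 4. The log2 change was 4.33 ± 0.60 in PPARα-deficient hearts (20.1-fold, adjusted p = 2.41e-05, edgeR) and 5.38 ± 0.64 in Ppara-flox hearts (41.5-fold, adjusted p = 4.83e-06, edgeR). Without PPARα-deficient PBS replicate 4 the change in that genotype was 47.0-fold.

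Cxcl2, also called MIP-2 (chr5:90903871-90905938, plus strand), measured 5.82, 6.45, 9.32 and 6.74 CPM in PPARα-deficient hearts given LPS, against 0.055, 0.175, 0.111 and 0.890 CPM in those given PBS. In Ppara-flox hearts it measured 5.65, 3.20, 4.20 and 4.61 CPM after LPS, against 0.171, 0.117, 0.116 and 0.157 CPM after PBS. PPARα-deficient PBS replicate 4 was again the highest control, and the LPS values of PPARα-deficient hearts all lay above those of Ppara-flox hearts. The log2 change was 4.53 ± 0.56 in PPARα-deficient hearts (23.0-fold, adjusted p = 8.65e-06, edgeR; 61.3-fold without PBS replicate 4). It was 4.96 ± 0.60 in Ppara-flox hearts (31.2-fold, adjusted p = 5.7e-06, edgeR).

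Cxcl5, a ligand that epithelial and stromal cells release (chr5:90759360-90761624, plus strand), measured 15.2, 23.9, 53.9 and 16.1 CPM in PPARα-deficient hearts given LPS, against 0, 0, 0.221 and 1.97 CPM in those given PBS. Ppara-flox hearts had 23.7, 16.6, 6.23 and 29.6 CPM after LPS, against 0, 0.0731, 0.0388 and 0.0569 CPM after PBS. The LPS values spread 3.54-fold within PPARα-deficient and 4.76-fold within Ppara-flox hearts, yet none came near a PBS value. The log2 change in PPARα-deficient hearts was 5.65 ± 0.96 (50.3-fold, adjusted p = 0.000187, edgeR; 364-fold without PBS replicate 4). The Ppara-flox PBS hearts held 3 read pairs of Cxcl5 in all, against 1379 in the LPS hearts, a ratio of 450 (95% counting interval 154 to 2183). The fold fitted by edgeR was 436 (adjusted p = 3.32e-05, edgeR).

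Cxcl3 (chr5:90786103-90789600, plus strand) was at or near 0 in the controls. It measured 0.897, 2.28, 1.71 and 4.22 CPM in PPARα-deficient hearts given LPS, against 0, 0, 0 and 0.129 CPM in those given PBS. Among Ppara-flox hearts the values were 1.38, 0.559, 0.797 and 0.980 CPM after LPS and 0 in all 4 libraries after PBS. Without PBS replicate 4 all PBS values of PPARα-deficient hearts were 0. The ratio of 161 to 2 read pairs in PPARα-deficient hearts, rounded to whole pairs, was 81.7 (95% counting interval 22.3 to 680). The fold fitted by edgeR there was 68.4 (adjusted p = 0.000208, edgeR). Cxcl3 was at least 5.53-fold higher in Ppara-flox hearts (floor of 12 counts per library, adjusted p = 0.000165, edgeR). Cxcl2 and Cxcl3 transcripts share an identical stretch of 157 bases, and how reads on such stretches were counted is not given in the sources used here, so the split between these 2 genes is uncertain.

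Neutrophil markers were higher after LPS, as these 4 ligands were, but markers and ligands did not always go together from heart to heart. The summed level of 11 markers was 57.2 to 92.4 CPM in PPARα-deficient hearts given LPS and 3.92 to 10.9 CPM in those given PBS. Within Ppara-flox hearts it was 65.1 to 119 CPM after LPS and 3.85 to 5.11 CPM after PBS. Hdc, which mast cells and basophils also express, averaged 45.5 ± 15.9 CPM of that sum in PPARα-deficient and 53.0 ± 13.8 CPM in Ppara-flox hearts given LPS, more than the other markers together. Of the 8 markers tested, 8 were called higher after LPS in PPARα-deficient and 7 in Ppara-flox hearts, against 19.4% and 20.2% of all genes. Ly6g, Mpo and Elane were not tested, and were at 0 in every PBS library of both genotypes. After LPS these averaged 0.147, 0.178 and 0.0729 CPM in PPARα-deficient hearts and 0.0880, 0.127 and 0 CPM in Ppara-flox hearts. PPARα-deficient PBS replicate 4, which held the highest Cxcl1, Cxcl2, Cxcl3 and Cxcl5 of all PBS libraries, had the highest PBS marker sum, 10.9 CPM, against 3.85 to 5.24 CPM in the other PBS libraries. PPARα-deficient LPS replicate 1 held the lowest Cxcl1, Cxcl2, Cxcl3 and Cxcl5 of its group, but its marker sum was 89.8 CPM, near the group's highest. Ppara-flox LPS replicate 1 held the highest Cxcl1, Cxcl2 and Cxcl3 of its group and the highest marker sum, 119 CPM. The part of neutrophil RNA in these ligand values was not tested.

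Of the interferon-induced ligands, Cxcl9 was the most abundant of the 10 ligands per exon length after LPS, and Cxcl10 varied more from heart to heart than Cxcl9 did. Cxcl9 (chr5:92321347-92328079, minus strand), the interferon-γ-induced ligand of CXCR3, measured 241, 284, 159 and 77.7 CPM in PPARα-deficient hearts given LPS, against 4.51, 3.97, 5.03 and 3.29 CPM in those given PBS. The Ppara-flox hearts held 232, 296, 114 and 155 CPM after LPS, against 3.31, 3.25, 2.75 and 1.78 CPM after PBS. PPARα-deficient LPS replicate 4 was lowest of the 8 LPS hearts. The log2 change was 5.50 ± 0.41 in PPARα-deficient hearts (45.3-fold, adjusted p = 3.63e-08, edgeR) and 6.17 ± 0.42 in Ppara-flox hearts (71.9-fold, adjusted p = 1.53e-08, edgeR). Macrophage markers, of a cell type known to make CXCL9, summed to 170 to 234 CPM in PPARα-deficient hearts given LPS and 291 to 341 CPM in those given PBS. In Ppara-flox hearts they summed to 150 to 196 CPM after LPS and 254 to 313 CPM after PBS. Much of that difference was Lyz2, which averaged 27.0 ± 6.60 CPM after LPS and 114 ± 14.1 CPM after PBS in PPARα-deficient hearts. Of the 8 macrophage markers, 1 was called higher (Cd68) and 3 lower in each genotype. Over all genes 19.4% were called higher and 18.3% lower in PPARα-deficient hearts, and 20.2% and 19.1% in Ppara-flox hearts. The median log2 change of these markers was 0.02 in PPARα-deficient and -0.07 in Ppara-flox hearts. Their part in the Cxcl9 values was not tested.

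Cxcl10, also called IP-10 and induced by type I and type II interferons and by NF-κB (chr5:92346638-92348889, minus strand), measured 21.5, 25.4, 39.0 and 4.96 CPM in PPARα-deficient hearts given LPS, against 0.303, 0.417, 0.553 and 0.201 CPM in those given PBS. In Ppara-flox hearts it measured 24.6, 9.88, 4.95 and 18.1 CPM after LPS, against 0.256, 0.175, 0.672 and 0.171 CPM after PBS. Each genotype had 1 LPS heart near 5 CPM, namely PPARα-deficient replicate 4 and Ppara-flox replicate 3, and the LPS values spread 7.86-fold in PPARα-deficient and 4.96-fold in Ppara-flox hearts. The log2 change was 5.94 ± 0.68 in PPARα-deficient hearts (61.2-fold, adjusted p = 3.79e-06, edgeR) and 5.47 ± 0.68 in Ppara-flox hearts (44.3-fold, adjusted p = 7.52e-06, edgeR; 70.5-fold without PBS replicate 3). Cxcl10 shares 133 exonic bases with Art3 on the opposite strand. Art3, an ADP-ribosyltransferase family gene, measured 239 ± 24.5 CPM in PPARα-deficient hearts given LPS and 144 ± 11.1 CPM in those given PBS. The strand setting of the counting is not given in the sources used here, and the part of Art3 reads in the Cxcl10 values was not tested.

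Cxcl11 (chr5:92359544-92365485, minus strand) stayed near the counting floor. It is annotated as a polymorphic pseudogene, since the C57BL/6 allele does not encode a full protein. It measured 0.765, 1.61, 0.726 and 0 CPM in PPARα-deficient hearts given LPS, against 0.151, 0, 0 and 0 CPM in those given PBS. Ppara-flox hearts had 0.711, 0.215, 0.152 and 0.379 CPM after LPS and 0 in all 4 libraries after PBS. The LPS heart at 0 was PPARα-deficient replicate 4, the same heart that was lowest in Cxcl9. The ratio of 54 to 3 read pairs in PPARα-deficient hearts, rounded to whole pairs, was 18.3 (95% counting interval 5.93 to 91.4). The fold fitted by edgeR was 19.6 (adjusted p = 0.0308, edgeR). That call ended without LPS replicate 1 or 2 or PBS replicate 2, 3 or 4 of that genotype (adjusted p 0.0520 to 0.0907, edgeR). Without PBS replicate 1 the other PBS libraries of that genotype were all at 0. Cxcl11 was at least 2.17-fold higher in Ppara-flox hearts (adjusted p = 0.00951, edgeR). It shares 1582 exonic bases with the processed pseudogene Gm2673 on the opposite strand, so the counts of Cxcl11 are uncertain. Gm2673 itself averaged 0.0146 CPM in PPARα-deficient and 0.00949 CPM in Ppara-flox hearts given LPS.

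The homeostatic ligands went in different directions. Cxcl12 fell, while Cxcl13 and Cxcl16 rose, Cxcl13 against PBS levels near 0. Cxcl12, also called SDF-1 (chr6:117168535-117181367, plus strand), measured 40.8, 44.2, 46.1 and 39.7 CPM in PPARα-deficient hearts given LPS, against 138, 139, 129 and 180 CPM in those given PBS. Among Ppara-flox hearts the values were 46.5, 41.5, 77.0 and 38.1 CPM after LPS, against 151, 171, 167 and 159 CPM after PBS. Ppara-flox LPS replicate 3, which had the most Cxcl12 and the least Cxcl5 of the LPS hearts, still lay below every PBS heart. Cxcl12 fell by 1.78 ± 0.18 on the log2 scale in PPARα-deficient hearts (3.43-fold lower, adjusted p = 7.71e-07, edgeR). Within Ppara-flox hearts it was 3.19-fold lower (SE 0.17 on the log2 scale, adjusted p = 1.29e-06, edgeR).

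Among the cell type markers, those of endothelial cells summed to 673 to 715 CPM in PPARα-deficient hearts given LPS and 784 to 958 CPM in those given PBS. In Ppara-flox hearts these sums were 751 to 838 CPM after LPS and 837 to 909 CPM after PBS. Fibroblast markers summed to 575 to 631 CPM in PPARα-deficient hearts given LPS and 470 to 522 CPM in those given PBS, and to 481 to 638 CPM after LPS and 479 to 540 CPM after PBS in Ppara-flox hearts. Of the 5 endothelial markers, 2 (Tek and Kdr) were called lower and 0 higher in each genotype. Over all genes 19.4% were called higher and 18.3% lower in PPARα-deficient hearts, and 20.2% and 19.1% in Ppara-flox hearts. The median log2 change of the endothelial markers was -0.11 in PPARα-deficient and 0.04 in Ppara-flox hearts. The fibroblast sums were higher after LPS in PPARα-deficient hearts and overlapped between treatments in Ppara-flox hearts. The fibroblast sums were mostly Dcn, at 467 ± 29.0 CPM after LPS and 310 ± 26.2 CPM after PBS in PPARα-deficient hearts, and Dcn was the 1 fibroblast marker of 5 called higher in each genotype. In each genotype 3 of the 5 were called lower, against 18.3% of all genes in PPARα-deficient and 19.1% in Ppara-flox hearts. The median log2 change of the 5 fibroblast markers was -0.35 in PPARα-deficient and -0.70 in Ppara-flox hearts. The part of endothelial cells and fibroblasts in the Cxcl12 values was not tested.

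Cxcl13 (chr5:95956951-95961068, plus strand) measured 9.79, 8.04, 7.65 and 6.65 CPM in PPARα-deficient hearts given LPS, against 0.151, 0, 0.166 and 0 CPM in those given PBS. The Ppara-flox hearts held 7.07, 10.7, 10.2 and 7.17 CPM after LPS, against 0, 0, 0.0646 and 0 CPM after PBS. All LPS hearts lay in a narrow band, and all PBS hearts were at or below the counting floor. The log2 change in PPARα-deficient hearts was 6.63 ± 0.65 (98.9-fold, adjusted p = 7.56e-07, edgeR; 153-fold without PBS replicate 3). The Ppara-flox PBS hearts held 1 read pair in all, rounded to whole pairs, and that read pair came from PBS replicate 3. Against 645 in the LPS hearts, the ratio was 631 (95% counting interval 113 to 24955). The fold fitted by edgeR was 461 (adjusted p = 2.02e-07, edgeR). B cell markers summed to 0.175 to 0.697 CPM in PPARα-deficient hearts given LPS and 0.539 to 0.962 CPM in those given PBS, and to 0.0717 to 0.489 CPM after LPS and 0.498 to 1.43 CPM after PBS in Ppara-flox hearts.

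Cxcl16 (chr11:70453983-70459984, minus strand) had closely spaced replicates. It measured 16.3, 17.5, 19.2 and 19.8 CPM in PPARα-deficient hearts given LPS, against 7.77, 6.29, 7.21 and 7.73 CPM in those given PBS. In Ppara-flox hearts it measured 15.4, 15.2, 14.9 and 12.6 CPM after LPS, against 6.40, 6.76, 5.35 and 7.53 CPM after PBS. The LPS hearts were above all PBS hearts in both genotypes. The log2 change was 1.33 ± 0.12 in PPARα-deficient hearts (2.51-fold, adjusted p = 3.23e-07, edgeR) and 1.16 ± 0.12 in Ppara-flox hearts (2.23-fold, adjusted p = 1.26e-06, edgeR). Cxcl16 shares 552 exonic bases with Zmynd15 on the opposite strand, which was itself called higher after LPS with a log2 change of 0.47 in PPARα-deficient and 0.78 in Ppara-flox hearts.

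**Figure D3:**
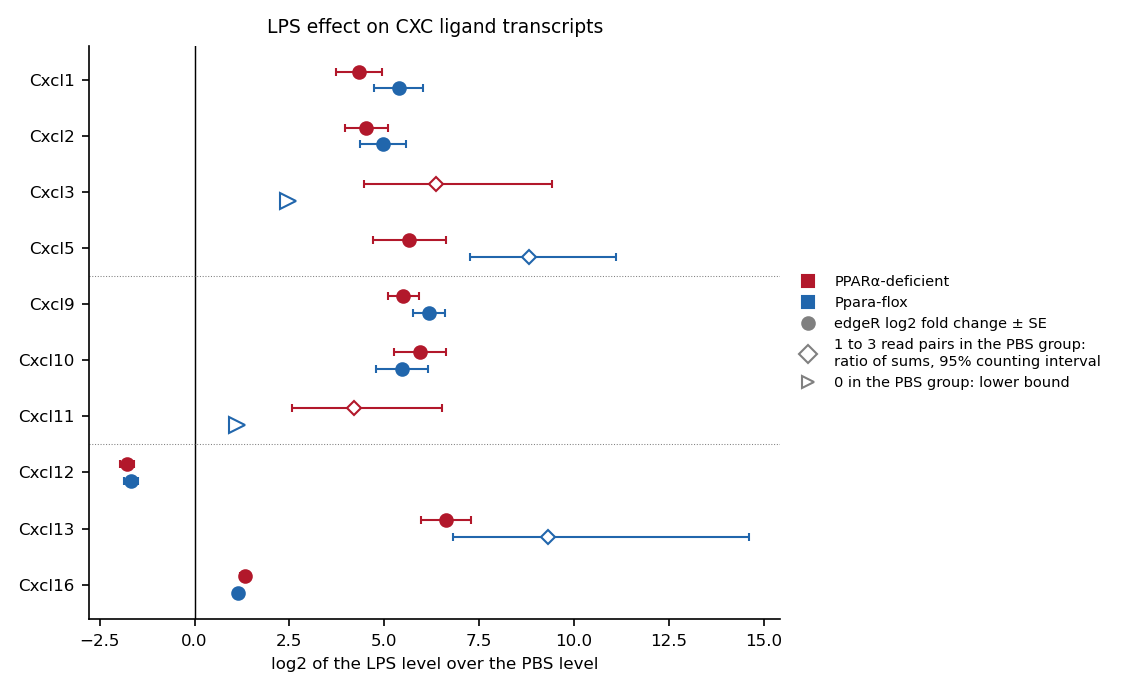
LPS effect on each CXC ligand, as the log2 of the LPS level over the PBS level, in PPARα-deficient (red) and Ppara-flox (blue) hearts. Circles are edgeR log2 fold changes with their SE, diamonds are ratios of summed read pairs with 95% counting intervals where the PBS group held 1 to 3 read pairs, and triangles are lower bounds where it held 0; Cxcl12 alone lies left of 0, at -1.78 and -1.67, and Cxcl16 lies closest to 0 on the right, at 1.33 and 1.16, apart from the lower bound of Cxcl11 in Ppara-flox hearts.

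The ligand with the largest mean share of the summed level of these 10 genes was Cxcl9 after LPS and Cxcl12 after PBS. Levels were set against each other as CPM per kb of exon, summed over the 10 ligands, which leaves out other CXC genes such as Cxcl14. That sum was 127 ± 36.3 in PPARα-deficient hearts given LPS and 23.2 ± 4.21 in those given PBS. Within Ppara-flox hearts it was 120 ± 29.6 after LPS and 23.5 ± 1.03 after PBS (SD, n = 4 each). Cxcl12 made up 4.41% of the sum in PPARα-deficient hearts given LPS and 77.4% in those given PBS, and 5.78% after LPS and 84.2% after PBS in Ppara-flox hearts. Cxcl9 made up 47.9% in PPARα-deficient hearts given LPS and 6.23% in those given PBS, and 53.5% after LPS and 3.90% after PBS in Ppara-flox hearts. These shares were not tested.

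By role, the interferon-induced ligands held 55.4% of the per-length sum in PPARα-deficient hearts given LPS and 7.02% in those given PBS, and 58.8% after LPS and 4.50% after PBS in Ppara-flox hearts. The neutrophil-attracting ligands held 29.1% in PPARα-deficient hearts given LPS and 4.76% in those given PBS, and 24.5% after LPS and 2.05% after PBS in Ppara-flox hearts. The summed level of the 3 homeostatic ligands was 18.2 ± 0.751 CPM per kb in PPARα-deficient hearts given LPS and 20.4 ± 2.86 in those given PBS. It was 18.7 ± 3.54 after LPS and 22.0 ± 1.06 after PBS in Ppara-flox hearts. By exon union length, these sums ranged over 17.2 to 18.9 after LPS and 18.3 to 24.6 after PBS in PPARα-deficient hearts. In Ppara-flox hearts they ranged over 15.1 to 23.3 after LPS and 20.6 to 23.2 after PBS. The overlap depends on the length used for Cxcl12, whose exon union is 8176 bases and longest transcript 5627 bases. The shorter length gives Cxcl12 and its fall more weight, so no offset is read from these sums.

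**Figure D4:**
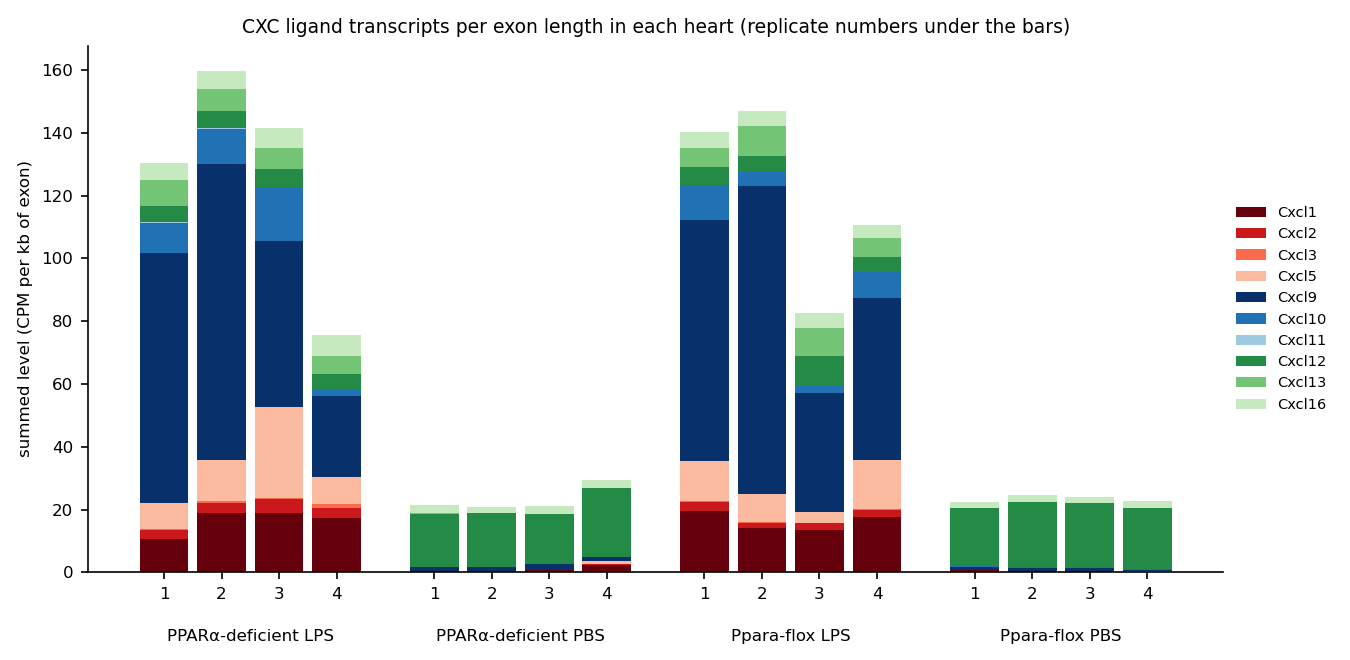
Stacked level of the 10 CXC ligands in every heart, in CPM per kb of exon, with replicates 1 to 4 of PPARα-deficient LPS, PPARα-deficient PBS, Ppara-flox LPS and Ppara-flox PBS from left to right. Reds are neutrophil-attracting, blues interferon-induced and greens homeostatic ligands; the LPS bars average 127 and 120, of which Cxcl9 is 47.9% and 53.5%, and the PBS bars average 23.2 and 23.5, of which Cxcl12 is 77.4% and 84.2%, in PPARα-deficient and Ppara-flox hearts.

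The order of the ligands by CPM per kb was led after LPS by Cxcl9, with 63.1 ± 30.3 in PPARα-deficient and 66.1 ± 26.8 in Ppara-flox hearts. Cxcl1 came next, with 16.4 ± 3.91 and 16.3 ± 2.81 in the same order of genotypes, and its range did not overlap that of Cxcl9 in either. Cxcl5, with 14.6 ± 9.75 in PPARα-deficient and 10.2 ± 5.40 in Ppara-flox hearts, overlapped Cxcl1. Cxcl10, Cxcl13, Cxcl16 and Cxcl12 took places 4 to 7 in an order that differed between the genotypes, and Cxcl2, Cxcl3 and Cxcl11 took places 8 to 10 in both. In PBS hearts the order began with Cxcl12, at 17.9 ± 2.80 in PPARα-deficient and 19.8 ± 1.09 in Ppara-flox hearts, then Cxcl16, at 2.40 ± 0.227 and 2.15 ± 0.30, then Cxcl9, at 1.39 ± 0.248 and 0.919 ± 0.235. The ranges of these 3 did not overlap in either genotype.

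No ligand was called different between the genotypes, after LPS or after PBS. After LPS 0 of 10 passed edgeR's test, against 1.23% of all genes, and 1 of 10 had an unadjusted p under 0.05, against 9.13% of all genes. DESeq2 and limma-voom also called 0 of 10. The ligand with the smallest p was Cxcl16, whose log2 difference was 0.33 ± 0.12 (95% confidence interval 0.07 to 0.58, adjusted p = 0.329, edgeR), with all 4 PPARα-deficient hearts above all 4 Ppara-flox hearts. Cxcl2 likewise did not overlap, at a log2 difference of 0.68 ± 0.47 (adjusted p = 0.791, edgeR). Groups lay apart in this direction for 2.53% of all genes.

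For the remaining ligands after LPS the differences lay on either side of 0, with intervals that include 0. The log2 difference was 0.02 for Cxcl1 (95% confidence interval -1.06 to 1.09) and -0.07 for Cxcl9 (-0.77 to 0.63). It was -0.25 for Cxcl12 (-0.61 to 0.11) and -0.13 for Cxcl13 (-1.11 to 0.85). The widest intervals belonged to ligands with scattered or scarce counts, namely Cxcl10 at 0.66 (-0.46 to 1.78), Cxcl5 at 0.52 (-1.08 to 2.12), Cxcl3 at 1.29 (-0.27 to 2.85) and Cxcl11 at 1.09 (-1.53 to 3.71).

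After PBS 0 of 10 ligands passed edgeR's test, against 0.433% of all genes, and 2 of 10 had an unadjusted p under 0.05, against 5.57% of all genes. DESeq2 and limma-voom called 0 of 10. The 2 were Cxcl5 (adjusted p = 0.672, edgeR) and Cxcl3 (adjusted p = 0.845, edgeR), and both rested on PPARα-deficient replicate 4. Cxcl1 had a log2 difference of 1.06 ± 0.60 and Cxcl2 one of 1.12 ± 0.61, and without that replicate these were -0.16 and -0.29. Among the ligands with many counts, Cxcl12 differed by -0.15 (95% confidence interval -0.51 to 0.21), Cxcl16 by 0.16 (-0.10 to 0.41) and Cxcl9 by 0.60 (-0.16 to 1.36).

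The LPS effect itself was compared between the genotypes by an interaction term, PPARα-deficient minus Ppara-flox. It was called for 0 of 10 ligands and for 0 of all genes by edgeR, and 0 of 10 ligands and 1075 genes (5.74%) had an unadjusted p under 0.05. DESeq2 and limma-voom called 0 of 10 ligands. The term was -0.10 for Cxcl12 (95% confidence interval -0.61 to 0.41) and 0.17 for Cxcl16 (-0.19 to 0.53). It was -1.04 for Cxcl1 (-2.70 to 0.61), -0.67 for Cxcl9 (-1.70 to 0.37) and 0.47 for Cxcl10 (-1.40 to 2.33). The term was farther from 0 for ligands at or near 0 in the controls, namely -3.43 for Cxcl11 (-8.69 to 1.84), -3.12 for Cxcl5 (-6.60 to 0.37), -2.97 for Cxcl3 (-7.04 to 1.10) and -2.22 for Cxcl13 (-4.66 to 0.22), and fitted values of such ligands depend on the prior count. Cxcl13 had the smallest p of the 10 (adjusted p = 0.909, edgeR), and Cxcl2 had -0.44 (-2.04 to 1.16). The intervals of the neutrophil-attracting and interferon-induced ligands were thus wider than those of Cxcl12 and Cxcl16.

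The hearts given LPS did not vary in the same way for every ligand. Among the PPARα-deficient LPS hearts the SD of log2 CPM was 0.10 for Cxcl12, 0.13 for Cxcl16 and 0.23 for Cxcl13, and 0.83 for Cxcl9 and 1.29 for Cxcl10. Among the Ppara-flox LPS hearts it was 0.13 for Cxcl16, 0.32 for Cxcl13 and 0.45 for Cxcl12, and 0.61 for Cxcl9 and 1.02 for Cxcl10. PPARα-deficient replicate 4 combined the lowest Cxcl9 and Cxcl10 of its group with the highest Cxcl3. Irf1, an interferon-induced transcription factor, was lowest in that heart too, with 81.3, 73.1, 58.7 and 25.5 CPM in PPARα-deficient replicates 1 to 4. In the Ppara-flox hearts given LPS it was 38.1, 27.6, 30.5 and 28.8 CPM. The other interferon-side genes were not compared heart by heart, so nothing is read from Irf1 alone.

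**Figure D5:**
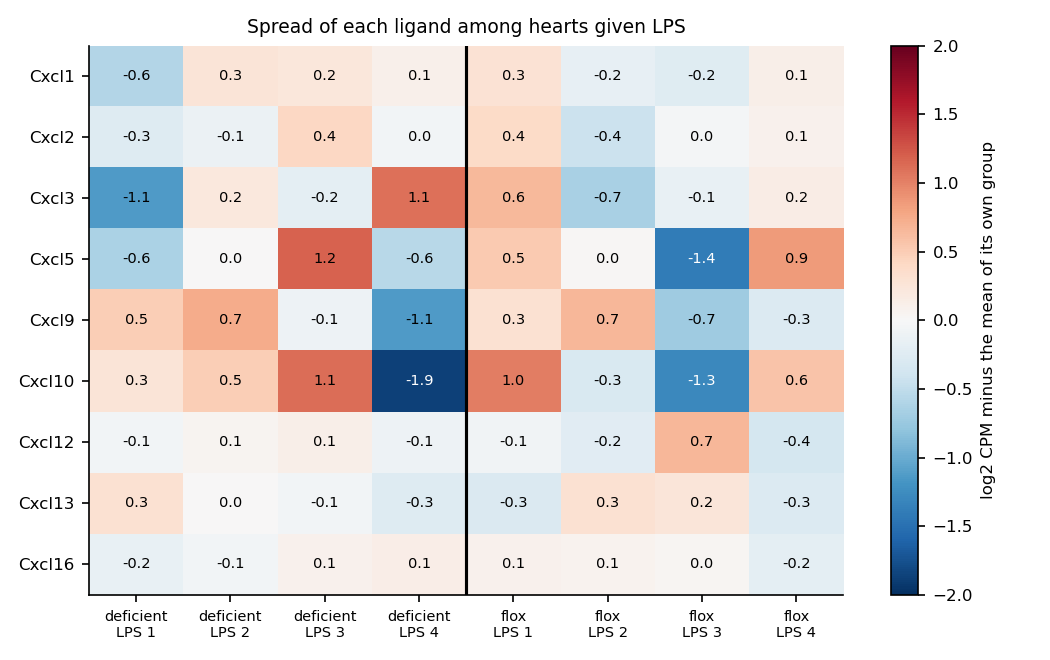
Deviation of each of 9 CXC ligands from the mean of its own group in the 8 hearts given LPS, in log2 CPM, with PPARα-deficient replicates 1 to 4 left of Ppara-flox replicates 1 to 4. Red is above and blue below the group mean; Cxcl10 spans -1.9 to 1.1 in PPARα-deficient and -1.3 to 1.0 in Ppara-flox hearts, while Cxcl16 spans -0.15 to 0.13 in PPARα-deficient and -0.20 to 0.09 in Ppara-flox hearts. Cxcl11 is not drawn because 1 library was at 0.

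Of 8 CXC receptor genes listed, 6 passed the filter on low counts, and LPS raised 1 and lowered 1 of them in PPARα-deficient hearts and raised 2 and lowered 1 in Ppara-flox hearts. Over all genes 19.4% were called higher and 18.3% lower in PPARα-deficient hearts, and 20.2% and 19.1% in Ppara-flox hearts, and nothing is read from counts this small. Cxcr4, the signalling receptor of CXCL12, measured 0.910, 0.876, 1.02 and 0.797 CPM in PPARα-deficient hearts given LPS, against 5.98, 5.72, 6.25 and 7.01 CPM in those given PBS. Ppara-flox hearts had 2.19, 1.65, 1.08 and 1.29 CPM after LPS, against 6.20, 4.65, 5.40 and 5.19 CPM after PBS. Cxcr4 thus fell together with its ligand in both genotypes, by 2.79 ± 0.21 on the log2 scale in PPARα-deficient hearts (adjusted p = 3.48e-08, edgeR) and by 1.79 ± 0.20 in Ppara-flox hearts (adjusted p = 2.14e-06, edgeR). After LPS all 4 PPARα-deficient hearts lay below all 4 Ppara-flox hearts, as 2.79% of all genes did, and the log2 difference of -0.78 ± 0.20 did not pass the test (adjusted p = 0.0747, edgeR). The interaction term of Cxcr4 was -1.0 ± 0.27 (adjusted p = 0.544, edgeR).

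Ackr3, the atypical receptor that binds and removes CXCL12, moved the opposite way to Cxcr4. It averaged 103 ± 6.76 CPM in PPARα-deficient hearts given LPS and 68.6 ± 12.1 CPM in those given PBS, a log2 change of 0.58 ± 0.12 (adjusted p = 0.00126, edgeR). In Ppara-flox hearts it averaged 99.5 ± 5.20 CPM after LPS and 61.8 ± 9.05 CPM after PBS, a log2 change of 0.69 ± 0.12 (adjusted p = 0.000291, edgeR). Ackr1, the erythrocyte and venular receptor that binds inflammatory chemokines, had a log2 change of 3.10 ± 0.94 in Ppara-flox hearts (adjusted p = 0.0145, edgeR) and 2.25 ± 0.88 in PPARα-deficient hearts (adjusted p = 0.0541, edgeR).

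The receptors of the inducible ligands were scarce. Cxcr2 measured 0.844, 0.788, 0.639 and 0.615 CPM in PPARα-deficient hearts given LPS, against 0.138, 0.161, 0.221 and 0.632 CPM in those given PBS. Among Ppara-flox hearts the values were 0.593, 0.574, 0.506 and 0.653 CPM after LPS, against 0.228, 0, 0.465 and 0.0712 CPM after PBS. The highest PBS value was again PPARα-deficient replicate 4, and neither LPS effect passed the test (adjusted p = 0.180 in PPARα-deficient and 0.110 in Ppara-flox hearts, edgeR). Cxcr3, the receptor of CXCL9 and CXCL10, was at most 0.249 CPM in any library and was at 0 in all 4 Ppara-flox hearts given LPS. Cxcr5, the receptor of CXCL13, was at most 0.215 CPM in any library and did not pass the filter, so it was not tested. Cxcr6, the receptor of CXCL16, was at most 0.378 CPM and was called in none of the comparisons. T and NK cell markers summed to 1.66 to 8.58 CPM in PPARα-deficient hearts given LPS and 0.121 to 1.05 CPM in those given PBS, and to 1.15 to 4.88 CPM after LPS and 0.470 to 0.882 CPM after PBS in Ppara-flox hearts. Gzmb, the granzyme B gene, held most of the LPS sums, at 3.28 ± 2.36 CPM in PPARα-deficient and 1.71 ± 1.56 CPM in Ppara-flox hearts. It was the 1 marker called higher of 4 tested in each genotype. Over all genes 19.4% were called higher in PPARα-deficient and 20.2% in Ppara-flox hearts, so nothing is read from that count. Cd3e, a T cell receptor subunit, averaged 0.196 CPM after LPS and 0.0716 CPM after PBS in PPARα-deficient hearts, and 0.0916 CPM after LPS and 0.152 CPM after PBS in Ppara-flox hearts. The part of these cells in the Cxcl9 and Cxcl10 values was not tested.

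Of 5 other CXC ligand genes listed, 3 were tested, and 1 was called higher and 0 lower in each genotype, against 19.4% and 20.2% of all genes called higher. It was Cxcl14, a ligand made by epithelia and fibroblasts, which averaged 68.7 ± 4.76 CPM in PPARα-deficient hearts given LPS and 26.6 ± 13.3 CPM in those given PBS (log2 change 1.37 ± 0.27, adjusted p = 0.000633, edgeR). Within Ppara-flox hearts it averaged 65.9 ± 6.52 CPM after LPS and 18.9 ± 5.77 CPM after PBS (log2 change 1.80 ± 0.27, adjusted p = 5.28e-05, edgeR).

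Genes on the NF-κB side of the pathway were called higher for 5 of 8 in PPARα-deficient and 6 of 8 in Ppara-flox hearts, against 19.4% and 20.2% of all genes, and 0 were called lower. Nfkbiz, the nuclear co-regulator that NF-κB needs at a subset of its targets, had a log2 change of 3.15 ± 0.21 in PPARα-deficient and 3.55 ± 0.21 in Ppara-flox hearts. Tnfaip3, the deubiquitinase A20 that restrains NF-κB, had 3.41 ± 0.22 and 3.49 ± 0.22 in the same order, and the inhibitor Nfkbia had 2.33 ± 0.15 and 2.49 ± 0.15. Rela, the p65 subunit, had 0.98 ± 0.09 and 0.97 ± 0.09. The highest adjusted p among these 4 genes was 6.38e-07 (Rela in Ppara-flox hearts, edgeR).

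On the interferon side, all 5 of the genes tested (of 7 listed) were called higher in each genotype, against 19.4% of all genes in PPARα-deficient and 20.2% in Ppara-flox hearts, and Ifnb1, the gene of interferon-β, was at 0 in all 16 libraries. Irf7, an interferon regulatory factor, had a log2 change of 4.25 ± 0.43 in PPARα-deficient hearts and 4.01 ± 0.42 in Ppara-flox hearts. Irf1 had 1.67 ± 0.26 in PPARα-deficient hearts (adjusted p = 7.39e-05, edgeR) and 0.75 ± 0.25 in Ppara-flox hearts (adjusted p = 0.0255, edgeR). After LPS Irf1 averaged 59.7 ± 24.6 CPM in PPARα-deficient hearts and 31.3 ± 4.71 CPM in Ppara-flox hearts, a log2 difference of 0.93 ± 0.25 that did not pass the test (adjusted p = 0.105, edgeR).

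Among 7 genes of chemokine mRNA decay and peptide processing, 4 were called higher and 2 lower in each genotype, against 19.4% and 18.3% of all genes in PPARα-deficient and 20.2% and 19.1% in Ppara-flox hearts. Zfp36, whose product binds AU-rich chemokine mRNAs and speeds their decay, had a log2 change of 1.53 ± 0.17 in PPARα-deficient and 1.57 ± 0.17 in Ppara-flox hearts, and the ribonuclease gene Zc3h12a had 2.07 ± 0.15 and 2.03 ± 0.15. Dpp4, the peptidase that trims CXCL10 and CXCL12 at the N-terminus, measured 0.462, 0.598, 0.697 and 0.783 CPM in PPARα-deficient hearts given LPS, against 1.88, 2.27, 2.28 and 2.43 CPM in those given PBS. The Ppara-flox hearts held 0.445, 0.631, 0.101 and 0.366 CPM after LPS, against 2.18, 3.19, 2.24 and 3.10 CPM after PBS. Dpp4 fell by 1.80 ± 0.36 on the log2 scale in PPARα-deficient hearts (adjusted p = 0.000808, edgeR) and by 2.80 ± 0.38 in Ppara-flox hearts (adjusted p = 1.86e-05, edgeR), with no overlap between treatments. Adam17, a sheddase, fell by 0.41 ± 0.08 in PPARα-deficient and by 0.30 ± 0.08 in Ppara-flox hearts.

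The genes whose profiles over the 16 libraries were most like those of 1 ligand of each role were sought among 9849 genes, by the root mean square difference of centred log2 CPM. For Cxcl1 they were Mt2 (0.71), Timp1 (0.72), Inhbb (0.79) and Cfb (0.80). For Cxcl10 they were Iigp1 (0.67), Igtp (0.68), its fellow ligand Cxcl9 (0.74) and Cd274 (0.74). For Cxcl12 they were Etl4 (0.20), Akap1 (0.21), Ltbp4 (0.21) and Nrp1 (0.21). The difference is not scaled to the size of the LPS effect or to the spread. The smaller values of Cxcl12, whose LPS change was smaller, thus do not show a closer likeness. The LPS effect dominates these profiles, since all samples share the same 2 treatments, and the likeness carries no test.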

How the data were processed

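The deposited tables give, for each gene symbol, an expected count (an estimated count) that is whole and unscaled. Tools named in the submitters' processing notes are HISAT, fastp 0.23.2, DESeq2 1.30.1 and StringTie 1.3.3b, with the build GRCm38; the counter, annotation and strand setting are not given in the sources used here. Libraries were stranded, per the labels' protocols. Of 55421 table lines, 27 with symbols turned into dates were left out (0.0644% to 0.0861% of counts) and repeated symbols were summed. Mitochondrial genes took 22.5% to 29.8% of counts.

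Genes were filtered with filterByExpr, scaled by TMM and fitted as 4 group means over all 16 libraries (edgeR 4.0.16 quasi-likelihood, 12 residual degrees of freedom; R 4.3.3, limma 3.58.1, DESeq2 1.42.0). Adjusted p is Benjamini-Hochberg over all genes, and CPM are TMM-scaled. Exon lengths came from GENCODE vM21. The model was tested on simulated data. All 10 ligands are described; of other lists at most 4 members with the smallest p are named, with each ligand's receptor. Members, lists and roles were chosen with earlier results of these data known. Tables and figures were made with matplotlib 3.10.9, scipy 1.17.1, numpy 2.4.6, pandas 2.3.3 and Python 3.11.15. Alternatives were other scaling, filters, tests and thresholds, fewer libraries and a replicate block. For a single gene of the pathway lists, which is counted with its list, no value is reported here.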

Additional observations from a re-analysis of the deposited data

Results flagged for a closer look

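Values were judged in their group of 4 samples by the gap to the nearest other value, as a share of the group's range. A value was taken to stand apart where that share exceeded Dixon's 95% critical value, and chance flags about 1 in 20 groups. Of 38 groups searched, each holding the values of 1 ligand, 7 were flagged. PPARα-deficient PBS replicate 4 stood apart as the highest of its group in Cxcl2 (0.890 CPM), Cxcl3 (0.129 CPM) and Cxcl5 (1.97 CPM), and its neutrophil marker sum of 10.9 CPM was also the highest of its group. The part of that sum in the ligand values was not tested. Ppara-flox PBS replicate 3 was the highest of its group in Cxcl10 (0.672 CPM) and in Cxcl13 (0.0646 CPM). PPARα-deficient PBS replicate 1 was the only one of its group with Cxcl11 (0.151 CPM). For Cxcl3, Cxcl11 and Cxcl13 the other 3 samples were at 0, so the gap equals the range whatever the value, and all 3 values lie below the counting floor (about 0.166 CPM in PPARα-deficient and 0.168 CPM in Ppara-flox PBS hearts). Ppara-flox LPS replicate 4 was the lowest of its group in Cxcl16 (12.6 CPM).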

How the results depend on the processing

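In the LPS comparisons all 10 ligands kept their direction under every alternative run. Of the 10 calls in PPARα-deficient hearts, that of Cxcl11 was lost at a threshold of 0.01 (adjusted p = 0.0308), without a filter (adjusted p = 0.0506), under limma-voom (0.186), with the 2 number series of the PBS headers as a block (0.165) and without each of 5 single libraries (0.0520 to 0.0907). In Ppara-flox hearts limma-voom lost Cxcl5 (0.0528) and Cxcl11 (0.0818). The stricter filter removed Cxcl3 and Cxcl11 from testing. Between genotypes and for the interaction 0 ligands were called under every alternative. Replicate numbers did not pair the samples: over 24 pairs the correlation of deviations ran from -0.0658 to 0.0746, and with the replicate block the ligand calls stayed at 9 higher and 1 lower in each genotype, and at 0 between genotypes. The header series block and the joint removal of 3 libraries (PPARα-deficient PBS 4 and LPS 4, Ppara-flox LPS 3) were chosen after seeing the data.

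Counts over all genes between genotypes after LPS were 231, and 126 at an adjusted p under 0.01, 444 with DESeq2, 141 from the 8 libraries compared and 147 without the 3 libraries. After PBS they were 81, and 183 with DESeq2. For the interaction they were 0, and 55 with DESeq2, 4 with the stricter filter, 4 with counts divided by 4 and 0 to 4 without single libraries. By the longest transcript Cxcl12 held 6.10% of the summed level in PPARα-deficient LPS, 82.3% in PPARα-deficient PBS and 87.8% in Ppara-flox PBS hearts.

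Signs turned for uncalled ligand differences, and the causes were not tested. Between genotypes after LPS, log2 differences were -0.00709 (Cxcl1) and -0.14 (Cxcl11) under limma-voom. Without the 3 libraries they were -0.0800 (Cxcl1), 0.00658 (Cxcl9), 0.0599 (Cxcl12) and 0.0377 (Cxcl13). Without single libraries they ran from -0.0622 to 0.175 (Cxcl1), -0.0486 to 0.823 (Cxcl5), -0.33 to 0.19 (Cxcl9) and -0.36 to 0.0237 (Cxcl12). After PBS they were -0.17 (Cxcl1) and -0.30 (Cxcl2) without the 3 libraries, and ran from -0.16 to 1.42 (Cxcl1), -0.29 to 1.47 (Cxcl2) and -0.0681 to 0.87 (Cxcl10) without single libraries. The interaction was 0.35 (Cxcl2) and 0.0927 (Cxcl3) under limma-voom, and 0.0925 (Cxcl1), 0.99 (Cxcl2), 0.75 (Cxcl3) and 0.33 (Cxcl12) without the 3 libraries. Without single libraries it ran from -1.40 to 0.18 (Cxcl1), -0.78 to 0.98 (Cxcl2), -3.46 to 1.29 (Cxcl3), -0.21 to 0.85 (Cxcl10), -4.07 to 1.09 (Cxcl11) and -0.21 to 0.17 (Cxcl12). Depth limits Cxcl2, Cxcl3, Cxcl5, Cxcl10, Cxcl11 and Cxcl13, which held at most 38 read pairs in all in a PBS group (4 estimated counts to a read pair).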
